A study of Homo sapiens with 20 samples.

Results

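CFTR, the keratin genes KRT7, KRT8, KRT18 and KRT19, SPP1 and EPCAM are genes that duct cells of the pancreas and other simple epithelia express, and they were followed here in human pluripotent stem cells (hPSCs) with and without GPX2 during differentiation into endoderm. These 7 genes were chosen by name out of 36107 genes that both bulk count tables and all 4 single-cell matrices hold, and CFTR was picked because it had been seen far higher in GPX2 knockout (KO) cells at day 21, so the day 21 comparison of KO with WT cells is a description here and carries no test. HUES8, an established hPSC line with an inducible Cas9, was the WT line in the study, and the KO cells were clonal derivatives in which 3 guide RNAs removed GPX2, the gene of an antioxidant glutathione peroxidase. Bulk RNA-seq covered the posterior foregut (PFG) stage at day 6 of pancreatic induction, with 2 WT and 2 KO libraries, and day 8 of a culture in which definitive endoderm differentiated without further pancreatic factors, with 2 libraries each of WT, WT given H2O2, KO, and KO given selenium. Single-cell RNA-seq covered the pancreatic endoderm (PEN) stage at day 8 and the stem-cell-derived β (SC-β) stage at day 21, with 1 WT and 1 KO library at each, and ATAC-seq, which maps accessible chromatin, covered day 8 of the spontaneous culture with 2 libraries per genotype. The labels give H2O2 at 10 nM and selenite at 100 pM, H2O2 was given to WT cells alone and selenium to KO cells alone, and the labels name the genotype of every day 8 bulk library as WT, so that KO was taken from the library titles. The treatment label and the study's own text put the day 6 libraries at the foregut stage of the induction, while their titles carry the same sp ending as those of the spontaneous day 8 libraries. A clone can differ from its parent line by more than the deleted gene, and nothing states that replicate libraries came from separate cultures, so the p-values below measure the spread between these libraries, which may be technical.

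CFTR encodes a chloride and bicarbonate channel of the apical membrane, through which pancreatic duct cells secrete an alkaline fluid. KRT8 and KRT18 are the partner keratins of simple epithelia and appear early in endoderm, while KRT19 and KRT7 are often used as duct markers. EPCAM is an adhesion molecule of epithelial cells and of hPSCs themselves. SPP1 encodes osteopontin, a secreted glycoprotein that binds integrins and CD44 and is made by duct cells, macrophages and other cell types, so none of these genes marks duct cells alone.

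Total counts ran from 7315509 to 9725172 in the day 6 libraries and from 4234408 to 8617728 in the day 8 libraries. At day 21, 6128 WT and 5611 KO cells passed the filters, with a median of 5638 and 8061 unique molecular identifiers (UMIs, which count RNA molecules) per cell. At PEN, 1701 WT and 1837 KO cells had a median of 1040 and 836 UMIs. The WT and KO libraries at day 21 shared 7 cell barcodes, and those at PEN shared 0. GPX2 itself was lower in KO but not at 0. At day 6 it stood at 3.85 and 5.65 CPM (counts scaled to library size with TMM factors) in KO and at 17.7 and 7.58 CPM in WT. At day 8 it was 25.9 and 25.2 CPM in KO against 98.0 and 117 CPM in WT, and at day 21 it was 0.987 against 2.94 CPM. What the remaining KO counts come from was not tested.

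Counted over the 7 genes, the bulk comparisons gave few calls. A gene was called when its adjusted p, from edgeR's quasi-likelihood test with Benjamini-Hochberg adjustment over all genes tested, was under 0.05. At day 6, 0 of 7 were called for KO against WT, where 0.383% of the 14633 genes tested were, and 3 had an unadjusted p under 0.05, which 9.55% of all genes had. DESeq2 called 1 of the 7 there and limma-voom 0. At day 8, 0 of 7 were called in any of the 5 comparisons. The share of all 14470 genes called was 0% for KO against WT, for WT with H2O2 against WT, and for KO with selenium against KO or against WT, and 0.00691% for KO against WT with H2O2, which is GPX2 alone. The members with an unadjusted p under 0.05 numbered 0, 0, 2, 1 and 1 in these comparisons, in that order, against 1.22%, 0.898%, 0.995%, 1.33% and 1.67% of all genes, and DESeq2 and limma-voom called 0 of the 7 in all 5. The day 8 comparisons share libraries, so their values are not independent of each other. In bulk samples, fewer cells of a type and less RNA per cell cannot be told apart.

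In the single-cell data there is 1 library per genotype and stage, so no test was made, and the 95% intervals cover counting error only. Levels are the summed UMIs of a gene as CPM of all UMIs of the library, and the KO to WT ratio has an exact conditional interval. At day 21 the interval excluded 1 for all 7 genes, 6 higher and 1 lower in KO, where 24.6% of the 22166 genes with at least 20 UMIs had an interval above 1 and 37.2% one below it, 61.8% together. The median log2 ratio was 0.26 over the 7 and -0.09 over all those genes. At PEN 5 of the 7 had 20 UMIs, of which 1 had an interval above 1 and 3 had one below it, 4 in all, against 13%, 15.5% and 28.5% of 13690 genes, and the median log2 ratio was -0.34 over the 5 and -0.04 over all.

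**Figure D1:**
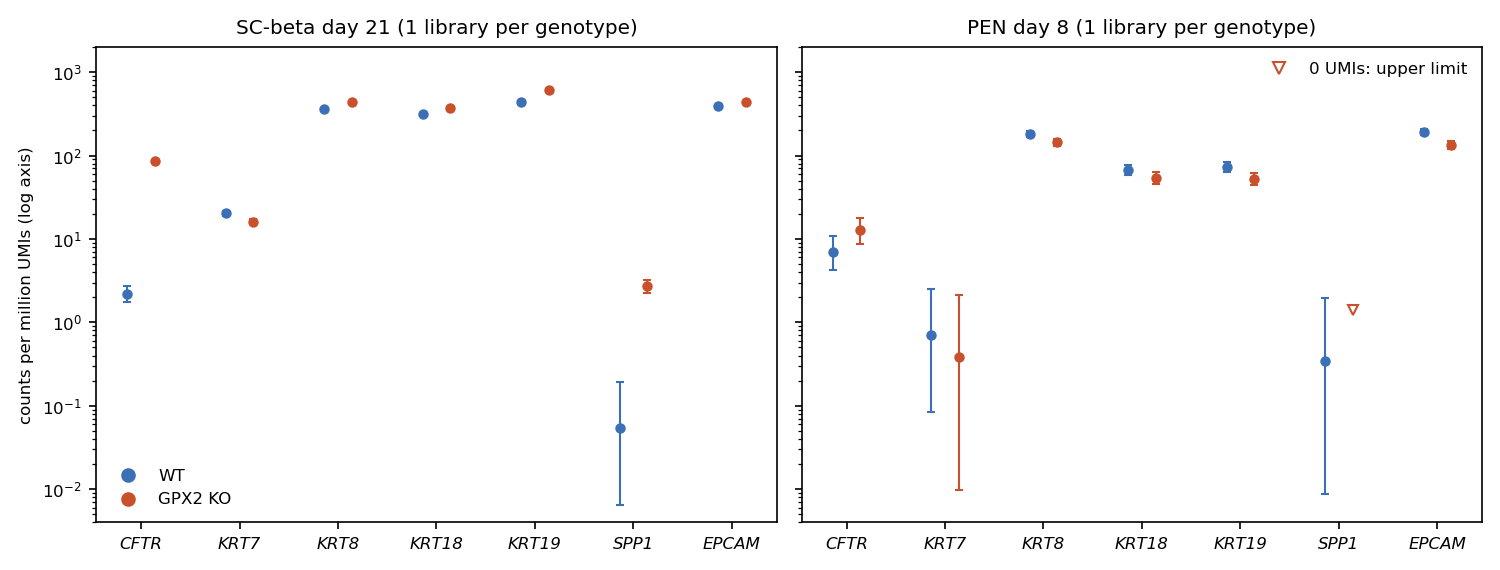
Summed level of each gene, as CPM on a log axis, in the WT (blue) and GPX2 KO (red) single-cell library at day 21 (left) and at PEN (right), 1 library per genotype. Points are the levels, bars the exact Poisson 95% intervals, and the open triangle the upper limit where a library held 0 UMIs; CFTR and SPP1 are the genes whose points lie far apart at day 21.

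The starts of CFTR and SPP1, the members with the widest gap between the genotypes at day 21, are shown first, since the ATAC-seq peaks at day 8 cover them. Each sequence is the 250 bases upstream of the gene's start, from RefSeq on GRCh38.p14, read 5′ to 3′ along the plus strand, which is the strand of both genes. The capitals mark the only match to any motif searched.
CFTR promoter, chr7:117479775-117480024: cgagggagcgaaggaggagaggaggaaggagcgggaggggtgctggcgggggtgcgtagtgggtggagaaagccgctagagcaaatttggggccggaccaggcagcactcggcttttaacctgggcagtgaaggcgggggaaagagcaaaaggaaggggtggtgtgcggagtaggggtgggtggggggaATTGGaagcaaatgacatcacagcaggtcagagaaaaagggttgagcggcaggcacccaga
SPP1 promoter, chr4:87975464-87975713: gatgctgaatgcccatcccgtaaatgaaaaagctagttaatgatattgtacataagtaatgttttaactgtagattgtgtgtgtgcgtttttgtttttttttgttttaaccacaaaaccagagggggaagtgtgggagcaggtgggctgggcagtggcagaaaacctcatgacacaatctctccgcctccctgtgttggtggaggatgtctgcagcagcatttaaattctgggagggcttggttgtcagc
The CFTR sequence is 61.2% G and C and that of SPP1 44.8%, around a median of 58% over 35116 promoters of this length. Both strands were searched for a GC box (GGGCGG, in 42.6% of these promoters), a CCAAT box (CCAAT, 32%), a TATA box (TATAAA, 10.7%), a cyclic AMP response element (TGACGTCA, 1.65%), an AP-1 site (TGANTCA, 6.57%), a FOXA site (TGTTTAC, 2.98%), a SOX site (ATTGTT, 8.98%) and a TFAP2 site (GCCNNNGGC, 19.8%). CFTR held 1 CCAAT box on the minus strand, 61 bases before the start, and SPP1 held none of these motifs.

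ATAC-seq peaks lay at the start of every member in both genotypes. By the study's legends these KO cells were clonal line KO2, while the untreated KO cells of bulk RNA-seq were KO1. The authors called peaks on merged libraries, which leaves no replicate check, and the lists hold 222750 peaks for WT and 202374 for KO. A peak within 1 kb of the start was found for 7 of 7 genes in WT and in KO, as for 82.8% and 82.3% of 19970 protein-coding genes. The peak over the CFTR start had a fold over background of 3.70 in WT and 3.598 in KO, above 91.2% and 88.0% of all peaks of the same list. EPCAM had the highest fold among the members, 4.05 in WT and 3.77 in KO, and KRT19 the lowest, 1.88 and 1.90. At SPP1 the fold was 3.25 with a -log10 q of 7.998 in WT, and 2.74 with a -log10 q of 4.73 in KO. CFTR itself spans 117480025 to 117668665 on chromosome 7 (GRCh38, plus strand, 27 exons in the Ensembl canonical transcript). It held 22 peaks in WT and 20 in KO, and 17 of either overlapped a peak of the other genotype. That is 11.7 and 10.6 peaks per 100 kb, against a median of 9.51 and 8.52 for protein-coding genes over 50 kb. SPP1 held 1 peak in each genotype, and these overlapped.

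**Figure D2:**
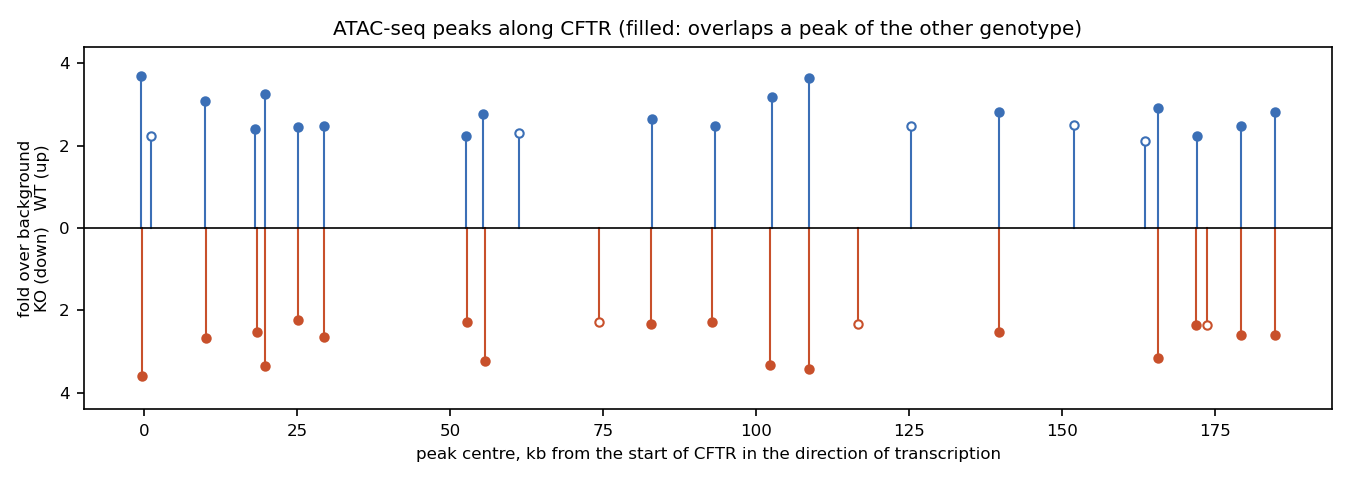
ATAC-seq peaks along CFTR at day 8 of spontaneous differentiation, WT upward in blue and GPX2 KO downward in red, with the distance of the peak centre from the start in kb on the x axis and the fold over background on the y axis. Filled points overlap a peak of the other genotype, which holds for 17 of the 22 WT peaks and 17 of the 20 KO peaks.

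CFTR was low at day 6 and higher at day 8, and edgeR without a block called it in 0 of the 6 comparisons between groups. Its day 6 levels were 34.2 and 50.3 CPM in the KO libraries (329 and 490 counts) and 25.3 and 32.7 CPM in the WT libraries (216 and 237 counts). Both KO libraries lay above both WT libraries, the lower KO value only just. The log2 fold change was 0.55 (SE 0.20, 95% interval 0.10 to 1.00, adjusted p = 0.394 by edgeR). The call depended on the fit, with an edgeR adjusted p of 0.00256 with the library letter as a block, 0.0123 with no filter on low counts and 0.00899 without KO library E. At day 8 CFTR was 93.8 and 202.2 CPM in WT, 33.1 and 175 CPM in WT with H2O2, 53.5 and 194 CPM in KO, and 74.6 and 196 CPM in KO with selenium, in the order of the library numbers 5 and 8 in the column headings. The ranges of all 4 conditions overlapped. KO against WT gave a log2 fold change of -0.26 (SE 0.90, 95% interval -2.38 to 1.86), an interval that holds changes of more than 2-fold in either direction.

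The widest difference in CFTR at day 8 was between the library numbers. In 4 of 4 conditions the library numbered 8 held more CFTR than the library numbered 5, and all 4 of the former (175 to 202.2 CPM) lay above all 4 of the latter (33.1 to 93.8 CPM). Fitted beside the condition, a comparison chosen after these values were seen, library 8 was higher by 1.66 on the log2 scale (SE 0.18, a fold of 3.17, adjusted p = 4.34e-04 by edgeR). CFTR was the 1 member called, where 25.2% of all genes were called, 11.6% higher and 13.6% lower. Headings do not say what the numbers stand for. Of 12 duct genes tested, 5 were higher in library 8 and 0 lower: the membrane protein gene PROM1 (log2 fold change 1.08, SE 0.077), CA2, a carbonic anhydrase (0.77, SE 0.10), BICC1, an RNA-binding regulator of tubules (1.39, SE 0.40), and the transcription factors ONECUT1 (1.27, SE 0.40) and SOX9 (0.56, SE 0.17). The median over the 12 was 0.85, and 0.01 over all genes tested. SPP1 stood at 0.58 (SE 0.23, adjusted p = 0.0886 by edgeR), and the other 5 members had an adjusted p above 0.2. With the number as a block, 0 of the 7 were called in any day 8 comparison, as without it. The block did move calls outside the 7. For KO against WT, GPX2 had an adjusted p of 0.00492 with it and 0.104 without it, both by edgeR. For KO with selenium against WT these were 0.0384 and 0.871. The share of all genes called with the block is not given here. CFTR with the block was -0.44 (SE 0.25) for KO against WT. For WT with H2O2 against WT it was -0.78 (SE 0.26, unadjusted p = 0.0126, adjusted p = 0.478 by edgeR).

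**Figure D3:**
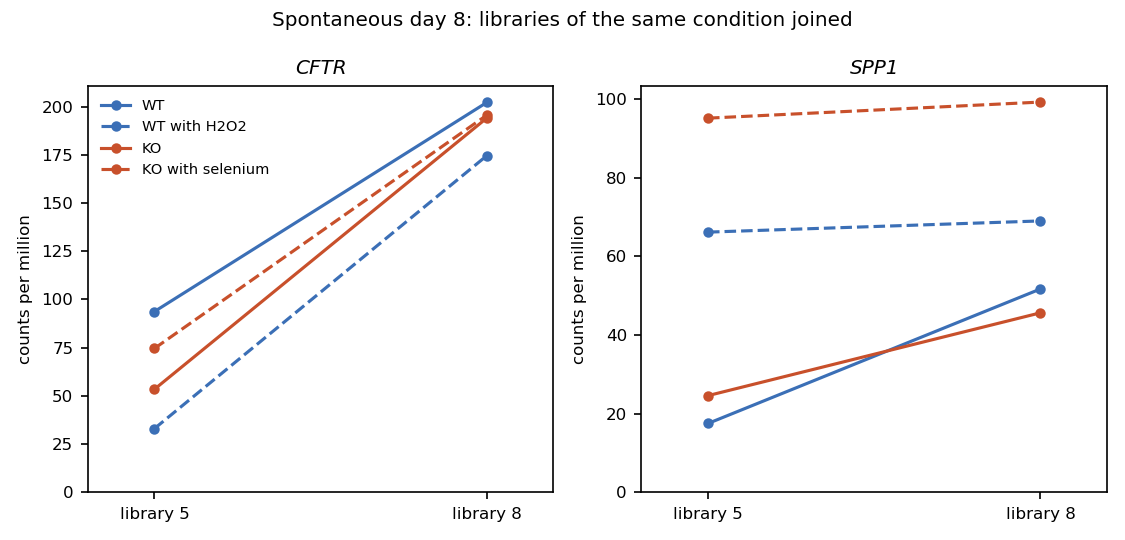
CFTR (left) and SPP1 (right) in CPM in the 8 libraries of spontaneous day 8, with the library numbered 5 joined to the library numbered 8 of the same condition (blue WT, red GPX2 KO, dashed lines for H2O2 or selenium). All 4 CFTR lines rise from 33.1 to 93.8 at library 5 up to 175 to 202.2 at library 8, while for SPP1 the libraries with H2O2 or selenium lie above the untreated ones.

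At PEN, CFTR was rare in both genotypes. It had 20 UMIs in WT (6.97 CPM) and 33 in KO (12.7 CPM), a ratio of 1.82 (1.01 to 3.35), and a UMI was found in 1.06% of WT cells. The lower end of that interval was just above 1, and it fell below 1 when cells with fewer than 500 genes were left out (1.70, 0.934 to 3.16) or barcodes with more than 10 times the median UMIs were (1.44, 0.753 to 2.80). Of 11 clusters of cells, 0 reached 100 CPM. The highest level, 31.1 CPM (14.9 to 57.1), rested on 10 UMIs in a cluster of 228 KO and 3 WT cells led by GASK1B and MARCHF1. Its interval overlapped that of the next cluster, at 26.3 CPM (5.43 to 77.0).

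At day 21, CFTR had 81 UMIs in WT (2.18 CPM, 1.74 to 2.72) and 4029 in KO (86.5 CPM, 83.8 to 89.2), a ratio of 39.6 (31.8 to 49.9). This is the value the gene was picked for. A ratio at least as high was seen in 0.451% of the 22166 genes. A CFTR UMI was present in 1.27% of WT cells and 23.1% of KO cells. With every cell thinned to 4000 UMIs, which left out 925 WT and 214 KO cells, the shares were 0.923% and 17.0%, so the gap was as wide at equal depth per cell.

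The KO CFTR signal sat in a limited set of cells. Cells of both libraries were clustered without the 7 genes, which gave 20 clusters, and 3 of these reached 100 CPM of CFTR. The highest was cluster 10, led by RBP4, AFP, LY75, AC019117.1 and TFF1, with 450 CPM (428 to 473) and a CFTR UMI in 82.7% of its 479 cells. Cluster 18, led by CKAP2L, SOX17, CDK1, CST1 and UBE2C, held 338 CPM (311 to 368) in 156 cells. Cluster 7, led by CST1, XACT, OSR2, RSPO3 and SOX17, held 299 CPM (284 to 314) in 635 cells, and its interval met that of cluster 18. All 1270 cells of these clusters were KO and 0 were WT, and as 22.6% of the KO cells they carried 90.5% of the KO CFTR UMIs. At a finer and a coarser clustering, 3 clusters with 1273 KO cells and 2 with 1270 reached 100 CPM, again with 0 WT cells. Since each genotype has a single library, what sets these clusters apart and what sets the KO library apart cannot be told apart.

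The markers of these 3 clusters were not those of duct. Of 7 other duct markers, among them BICC1, PKHD1, SLC4A4, AQP1, MUC1 and MMP7, 0 were among the raised genes of any of the 3, where a gene counted as raised at 2 times its level in the other cells, and no cluster of the 20 had more than 1. Hepatic markers raised were 6 of 9 in cluster 10 (AFP, FGA, FGB, FGG, APOA1 and APOB) and 3 of 9 in clusters 7 and 18 (FGB, FGG and APOA1), and CDX2 and CDH17, 2 of 7 intestinal markers, were raised in all 3. Proliferation markers were 6 of 6 in cluster 18. The same hepatic count did not come with CFTR everywhere: cluster 5, of 705 KO cells led by SPRR2F, FER1L6, GALNTL6, NTS and EPHA7, also had 6 of 9 hepatic markers raised and held 18.6 CPM of CFTR (15.1 to 22.7). The clusters are called here by their leading genes.

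Below these, CFTR fell off steeply. Cluster 5 and cluster 1 (led by SGCZ and DCDC2, 16.5 CPM, 13.8 to 19.6) did not differ beyond their intervals, nor did cluster 19 (13 CPM), cluster 3, of proliferating cells (9.59 CPM), and cluster 13 (9.19 CPM). In 5 endocrine-like clusters, numbered 2, 6, 9, 12 and 16 and each with 5 to 7 of 7 endocrine markers raised, CFTR was 1.93 to 3.62 CPM and 1.16% to 2.36% of cells had a UMI. By genotype, 0.599% of the 1168 WT cells (0.241% to 1.23%, median 7237 UMIs) and 2.26% of the 1550 KO cells (1.58% to 3.13%, median 9192.5 UMIs) in these 5 clusters had a CFTR UMI, so each share lay below that of its whole library, 1.27% in WT (1.01% to 1.59%, an interval that overlaps) and 23.1% in KO. How much of the WT signal is free RNA was not tested. KO cells outside the 3 clusters held 10.5 CPM, 4.81 times the WT level (3.77 to 6.19). Droplets of the KO matrix with at most 100 UMIs, which hold free RNA and not cells, carried 62.0 CPM of CFTR (55.4 to 69.1), and the part of that RNA in the values outside the clusters was not tested. No such droplets of the WT library were analysed here.

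Inside clusters that hold both genotypes the CFTR gap was smaller. There were 11 clusters with at least 20 cells of each genotype. The KO to WT interval was above 1 in 4 of them and spanned 1 in the other 7. In cluster 3 CFTR was 20.3 CPM in KO (51 UMIs) and 2.95 CPM in WT (12 UMIs), a ratio of 6.89 (3.63 to 14.2). In cluster 19 it was 28.7 and 5.20 CPM, a ratio of 5.51 (1.63 to 23.7), but Scrublet marked 23 of its 37 KO cells and 1 of its 104 WT cells as doublets, the highest share of any cluster (17.0%). Without these cells, left out after the values were seen, the ratio was 4.72 and its interval spanned 1 (0.879 to 25.3). In clusters 2 and 9 WT held 0 UMIs against 15 and 9 in KO.

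Further genes of duct and ion transport are given for the CFTR-high clusters and the other KO cells, as a description of 1 library. TFF1, a secreted trefoil peptide, stood at 55.2 CPM in the 3 clusters and at 4.45 CPM in the other KO cells. CA2 stood at 41.5 against 14.4 CPM, and KCNQ1, a potassium channel of secretory epithelia, at 22.6 against 7.86 CPM. SLC4A4, which loads duct cells with bicarbonate, went the other way with 11.7 against 117 CPM. ONECUT1 (8.61 against 68.2 CPM), the mucin gene MUC1 (2.84 against 17.2 CPM) and KRT7 (4.89 against 19.2 CPM) were also lower there. SOX9 was 13.2 and 14.8 CPM, with an interval of the ratio that spanned 1 (0.731 to 1.08). Across the 20 clusters, the genes whose log2(CPM + 10) followed that of CFTR most closely, of 7311 genes with at least 50 CPM in a cluster, included LRRC32 (Pearson r = 0.987), HLA-DPA1 (0.979), SOSTDC1 (0.979) and FZD4 (0.979). The points share 2 libraries, and the same 3 clusters set these values.

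**Figure D4:**
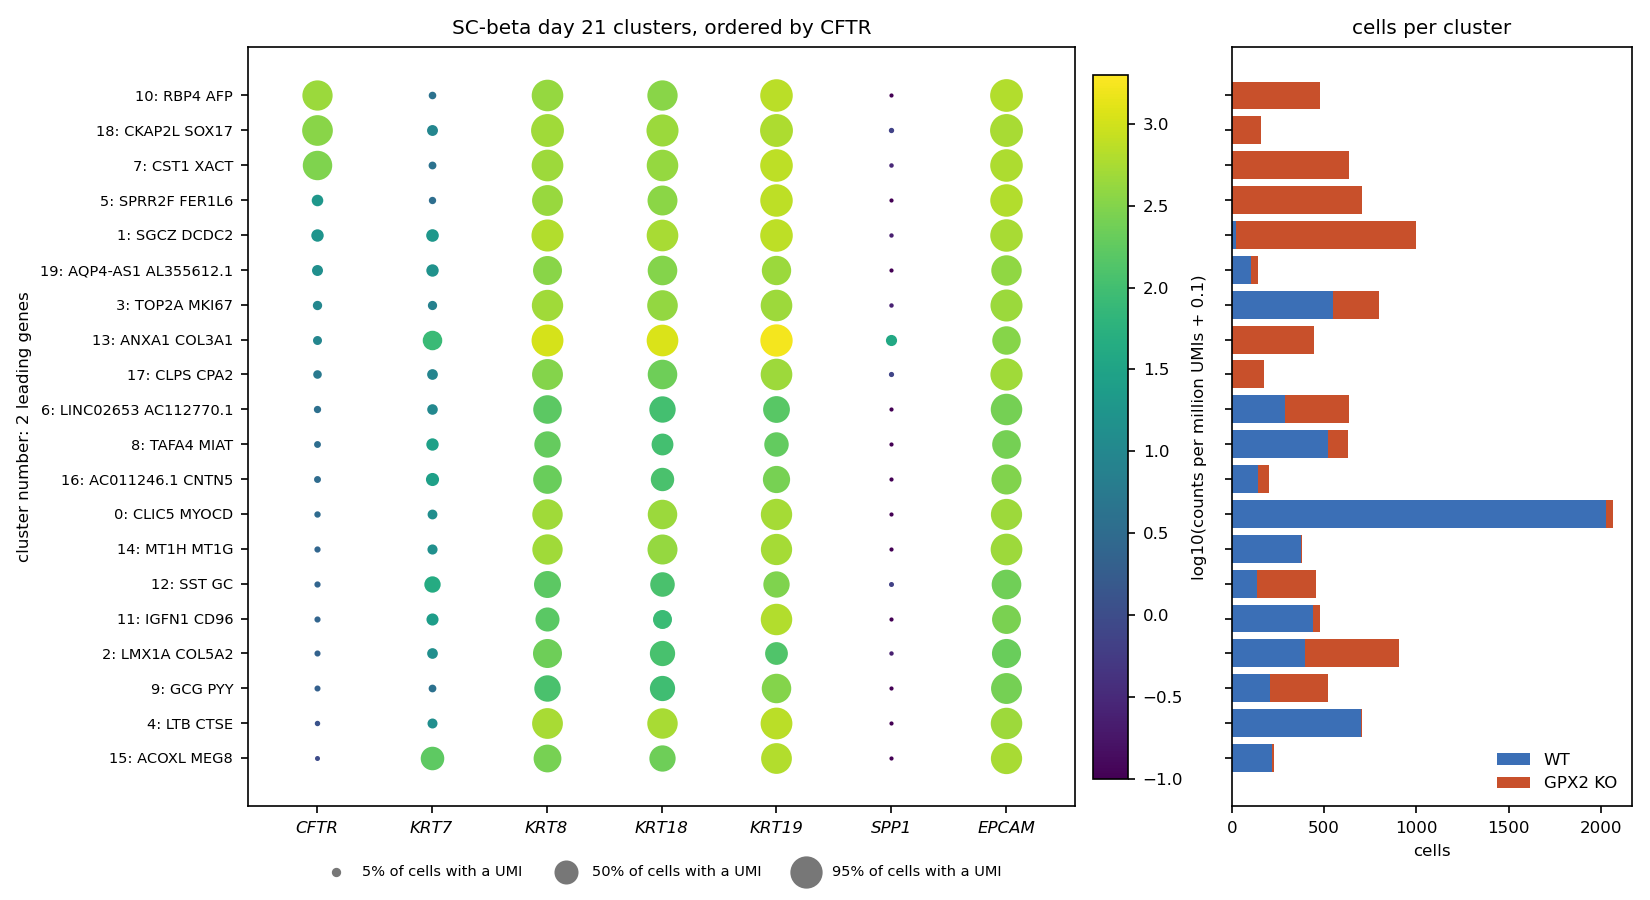
Left, the 7 genes (x axis) in the 20 clusters of day 21 cells (y axis, with the 2 leading genes of each, ordered by CFTR), where color is log10(CPM + 0.1) and dot area the share of cells with a UMI. Right, WT (blue) and GPX2 KO (red) cells per cluster; clusters 10, 18 and 7, with the high CFTR, hold KO cells only, and SPP1 is seen in cluster 13.

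KRT8 and KRT18 were abundant in all bulk libraries. Per length, as reads per kb of exon scaled like CPM (RPKM), KRT19 was the highest member in all 6 bulk groups (mean 753 to 965 RPKM), followed by KRT8 in 5 of them (186 to 261 RPKM) and by EPCAM in WT at day 6 (159 RPKM, with KRT8 at 142), while CFTR, KRT7 and SPP1 stayed under 14 RPKM. At day 6 KRT8 was 1233 and 1325 CPM in KO and 1024 and 936 CPM in WT, so the groups did not overlap. The log2 fold change was 0.38 (SE 0.079, adjusted p = 0.108 by edgeR), the member nearest to the threshold. KRT18 was 293 and 270 CPM in KO and 257 and 216 CPM in WT, again without overlap, with a log2 fold change of 0.25 (SE 0.10, adjusted p = 0.477 by edgeR). Which libraries were fitted decided these calls: without WT library E, 4 members were called (977 genes in all), and without KO library E, 2 were (260 genes). With the library letter as a block, CFTR (adjusted p = 0.00256), KRT8 (1.80e-06) and KRT18 (0.0186) were called by edgeR, among 842 genes, but the letter only names the columns and was not stated to mark a shared batch.

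At day 8 KRT8 was 2048 and 1542 CPM in WT, 1258 and 1574 CPM in WT with H2O2, 1756 and 1817 CPM in KO, and 1557 and 1350.1 CPM in KO with selenium, for library 5 and then 8. The KO values lay between those of WT, and the log2 fold change of KO against WT was -0.01 (SE 0.18, 95% interval -0.43 to 0.42). KRT18 was 344 to 566 CPM over the 8 libraries, with its lowest value in KO with selenium and its highest in WT. Its KO against WT value was -0.14 (SE 0.23). Exons of KRT8 and KRT18, which neighbour each other on chromosome 12, overlap by 525 bases, 17.1% of the exon length of KRT18, and reads there cannot be told apart without strand. The keratins also have many pseudogenes. Over the 8 libraries, 51 KRT8 pseudogenes held 442 counts against 72353 for KRT8, and 67 of KRT18 held 92 against 19146. Whether reads shared with a pseudogene changed the counts of the genes was not tested.

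In single cells KRT8 and KRT18 were a little higher in KO at day 21, and KRT8 was lower at PEN. At day 21 KRT8 was 363 CPM in WT and 434 CPM in KO, a ratio of 1.19 (1.17 to 1.22), and KRT18 314 and 371 CPM, a ratio of 1.18 (1.15 to 1.21). At PEN the ratios were 0.787 (0.688 to 0.901) for KRT8 and 0.801 (0.640 to 1.000, an interval that reached 1) for KRT18. Clusters held by both genotypes showed no common direction: inside the 11 shared clusters the KRT8 interval was above 1 in 3, below 1 in 1 and spanned 1 in 7, and the KRT18 interval was above 1 in 1, below 1 in 2 and spanned 1 in 8. By cluster, both keratins were lowest in the 5 endocrine-like clusters and in clusters 8 and 11, with 118 to 221 CPM of KRT8, and highest in cluster 13 with 1072 CPM of KRT8 and 1145 CPM of KRT18. The 3 CFTR-high clusters lay in between, with 417 to 477 CPM of KRT8.

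**Figure D5:**
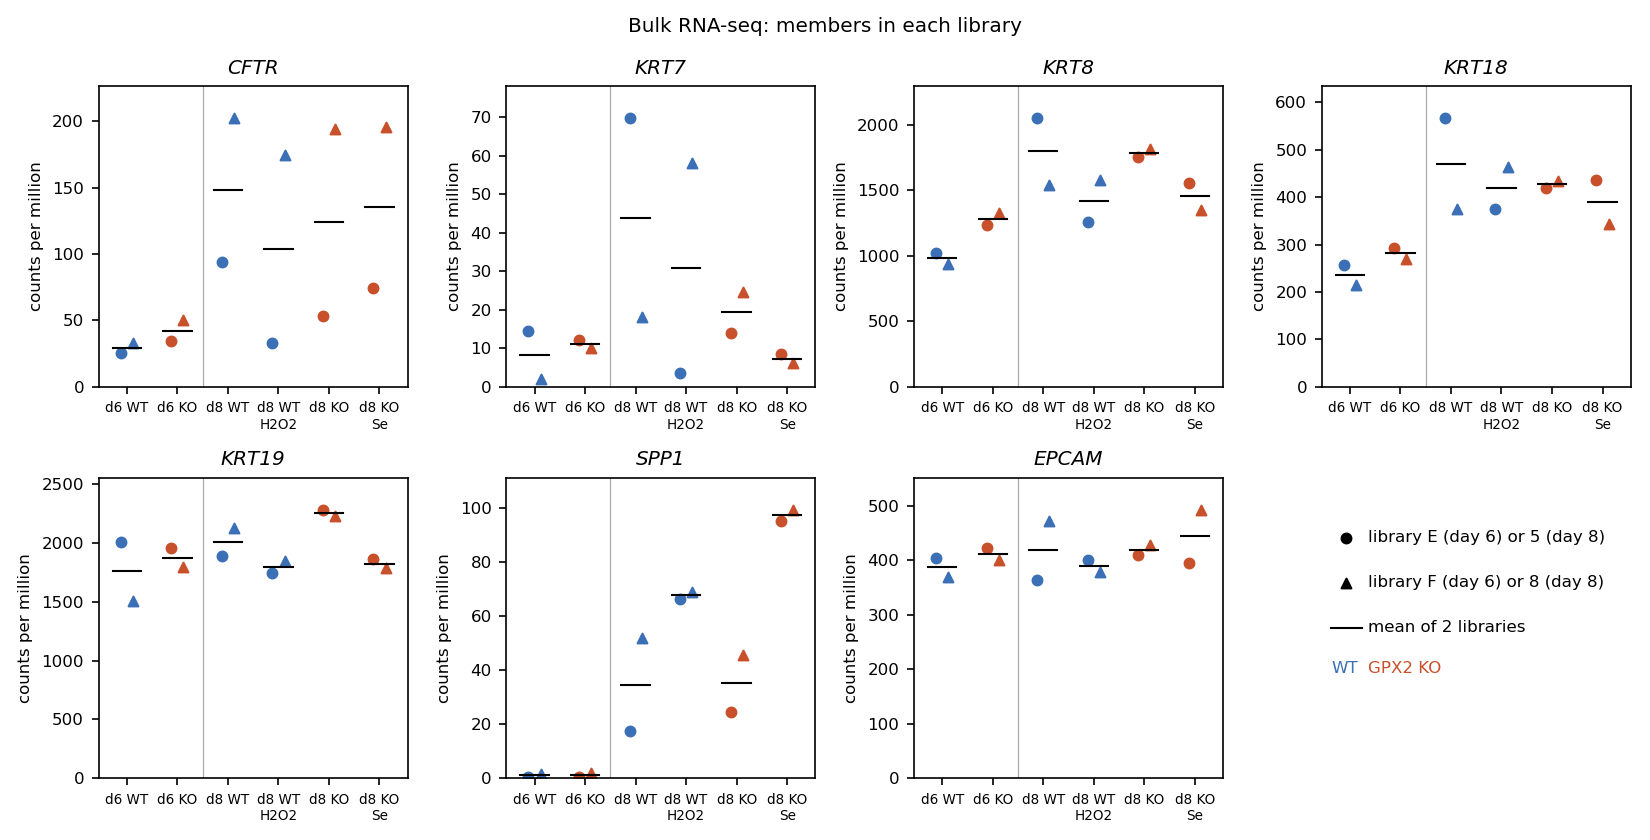
Level in CPM of each of the 7 genes in every bulk library, WT in blue and GPX2 KO in red, with circles for library E (day 6) or 5 (day 8), triangles for library F or 8, and a line at the mean of 2 libraries. Day 6 KRT8 and CFTR lie above WT in both KO libraries, and day 8 CFTR is higher in library 8 of every condition.

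KRT19 was the most abundant member per length in bulk and by CPM at day 21, but at PEN it lay below KRT8 and EPCAM. At day 6 it was 1954 and 1792 CPM in KO and 2009 and 1510 CPM in WT, ranges that overlapped, with a log2 fold change of 0.09 (SE 0.12). At day 8 it was 2282 and 2227 CPM in KO, above the 1891 and 2128 CPM of WT, the 1748 and 1846 CPM of WT with H2O2 and the 1865 and 1784 CPM of KO with selenium. Selenium against no selenium in KO gave -0.31 (SE 0.11, unadjusted p = 0.0278, adjusted p = 1.000 by edgeR), and KO against WT with H2O2 gave 0.33 (SE 0.11, unadjusted p = 0.0209, adjusted p = 1.000 by edgeR). At day 21 KRT19 was 444 CPM in WT and 604 CPM in KO, a ratio of 1.36 (1.34 to 1.39), and at PEN 73.5 and 52.2 CPM, a ratio of 0.711 (0.569 to 0.886). Inside the 11 shared day 21 clusters its interval was above 1 in 4, below 1 in 4 and spanned 1 in 3, from 0.531 in cluster 16 to 2.64 in cluster 19, where it was 3.67 (2.99 to 4.50) without the cells marked as doublets. Cluster 13 held the most, 1701 CPM, and cluster 2 the least, 130 CPM.

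KRT7 was the most variable member between libraries. At day 6 it was 12.3 and 10.2 CPM in KO and 14.5 and 2.07 CPM in WT. At day 8 it was 69.8 and 18.0 CPM in WT, 3.55 and 58.1 CPM in WT with H2O2, 13.9 and 24.7 CPM in KO, and 8.55 and 6.07 CPM in KO with selenium, in the order of library 5 and 8. Both selenium libraries lay below both WT libraries, with a log2 fold change of -2.59 (SE 1.14, unadjusted p = 0.057, adjusted p = 1.000 by edgeR), while the WT and H2O2 ranges overlapped widely. At day 21 KRT7 had 749 UMIs in each library, 20.2 CPM in WT and 16.1 CPM in KO, a ratio of 0.796 (0.718 to 0.882), and it was the 1 member lower in KO. A UMI was found in 8.84% of WT and 8.80% of KO cells. It was highest in cluster 15, led by ACOXL, MEG8, MEG3 and LMO3, with 169 CPM in 220 WT and 10 KO cells. Cluster 13, with KO cells only, held 81.5 CPM, and the endocrine-like cluster 12, led by SST, held 42.0 CPM. The CFTR-high clusters held 4.02 to 9.16 CPM, so the clusters highest in CFTR were low in KRT7. At PEN there were 2 WT and 1 KO UMIs, too few to compare.

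EPCAM was 424 and 401 CPM in KO and 405 and 370 CPM in WT at day 6, and 365 to 493 CPM over the 8 libraries at day 8, where KO against WT gave a log2 fold change of 0.00 (SE 0.18, 95% interval -0.42 to 0.43). At day 21 it was 390 CPM in WT and 441 CPM in KO, a ratio of 1.13 (1.11 to 1.15), and a UMI was found in 85.7% and 90.0% of cells. At PEN it was 191 and 133 CPM, a ratio of 0.699 (0.610 to 0.802). Across the day 21 clusters it ranged from 210 CPM in the endocrine-like cluster 2 to 646 CPM (620 to 674) in cluster 10, the cluster with the most CFTR. It was 584 and 554 CPM in clusters 7 and 18. Cluster 5, with 18.6 CPM of CFTR, held 632 CPM of EPCAM (611 to 655), and clusters 15 and 1 held 555 and 551 CPM, so high EPCAM was not particular to the CFTR-high clusters. Inside the 11 shared clusters its interval was above 1 in 3, below 1 in 5 and spanned 1 in 3.

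SPP1 was near absent at day 6, with 0.520 and 1.95 CPM in KO and 0.585 and 1.65 CPM in WT. At day 8 it was 17.5 and 51.7 CPM in WT, 66.2 and 69.0 CPM in WT with H2O2, 24.6 and 45.7 CPM in KO, and 95.2 and 99.3 CPM in KO with selenium. Both selenium libraries lay above all others, and both H2O2 libraries above the untreated ones of either genotype. The log2 fold change of selenium in KO was 1.47 (SE 0.49, a fold of 2.78, unadjusted p = 0.0189, adjusted p = 1.000 by edgeR), and that of H2O2 in WT was 0.96 (SE 0.48, unadjusted p = 0.0859, adjusted p = 1.000 by edgeR). Neither passed the threshold, and KO against WT without additions was 0.02 (SE 0.49). With the library number as a block the selenium value was 1.54 (SE 0.32, adjusted p = 0.712 by edgeR).

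At day 21 SPP1 was found in a single group of KO cells. There were 2 UMIs in WT and 127 in KO (0.0539 and 2.73 CPM), a ratio of 50.5 (13.7 to 422), and 121 of all 129 UMIs lay in cluster 13. This cluster held 443 KO cells and 0 WT cells and was led by ANXA1, COL3A1, TFAP2B, DCN and WNT6. Of its cells, 8.13% had an SPP1 UMI, and the level was 37.1 CPM (30.8 to 44.3). Raised there were 3 of 7 mesenchyme markers (COL1A2, COL3A1 and DCN) and 4 of 5 markers of surface ectoderm or amnion (TFAP2A, TFAP2B, GABRP and VTCN1), and the same cluster held the highest KRT8, KRT18 and KRT19, with an EPCAM of 325 CPM. Its CFTR was 9.19 CPM, so most SPP1 and most CFTR UMIs of the KO library lay in different clusters. Scrublet marked 29 of its cells (6.55%) as doublets, and 110 in the KO library against 4 in WT. Why so few WT cells were marked was not tested. Without the marked cells, cluster 13 held 118 SPP1 UMIs (40.1 CPM). Droplets of the KO matrix with at most 100 UMIs held 5.95 CPM of SPP1. At PEN SPP1 had 1 WT and 0 KO UMIs.

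Other genes of the same roles were followed in lists of duct genes, chloride and bicarbonate transport, epithelial junctions, other keratins, osteopontin receptors and mesenchyme. In bulk, 0 genes of any list were called for KO against WT at day 6, nor in the 5 comparisons at day 8. At day 6 the duct genes had a median log2 fold change of 0.21 over 12 genes tested, of which 4 had an unadjusted p under 0.05, and the transport genes 0.24 over 12, of which 3 did, against -0.01 over all genes. DCDC2, a doublecortin-family gene of cilia, had a day 6 log2 fold change of 0.92 (SE 0.23, adjusted p = 0.179 by edgeR) and KRT23 one of 1.37 (SE 0.51, adjusted p = 0.419 by edgeR).

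At day 21 the duct list was higher in KO by its median, 0.88 on the log2 scale over 17 genes measured against -0.09 over all genes, with 10 intervals above 1 and 6 below, where 24.6% of all genes had one above and 37.2% one below. The counts of the other lists are to be read against the same shares. The highest ratios were those of the trefoil peptide gene TFF2 (23.7, 13.97 to 43.7), DCDC2 (6.81) and TFF1 (6.08), and the lowest those of LCN2, an iron-binding secreted protein (0.185), MUC1 (0.254) and ONECUT1 (0.573). Transport genes were mixed, 4 above and 7 below among 16. KCNN4, a calcium-activated potassium channel, had a ratio of 6.48 (2.95 to 16.8), AQP5, a water channel, 2.39 (0.825 to 8.40) and SLC26A3, an anion exchanger, 1.49 (1.19 to 1.86). ANO1, a calcium-activated chloride channel, had 0.193 (0.156 to 0.236), SLC26A9 0.317 and the proton pump gene ATP12A 0.473. ANO1 and SLC26A9, which also conduct chloride, thus had ratios below 1 where CFTR had one far above it. Junction genes had 12 above and 9 below among 29, with CD9 (2.23), PKP3 (1.83) and RAB25 (1.39) highest and OCLN (0.711), GRHL2 (0.712) and CDH1 (0.737) lowest.

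Among other keratins at day 21, 7 of 17 could be measured, 4 above and 1 below. KRT23 had 1 UMI in WT and 533 in KO, a ratio of 424 (75.8 to 16781), KRT17 had 2 and 289, a ratio of 115 (31.5 to 954), and KRT222 a ratio of 3.74. KRT15 (0.648), KRT4 (0.788, 0.599 to 1.04) and KRT10 (1.31) were the lowest. Osteopontin receptors had 3 above and 4 below among 8, with CD44 at 0.0742 (19.4 CPM in WT and 1.44 CPM in KO), the integrin gene ITGAV at 0.443 and ITGB6 at 0.773, against ITGB5 at 1.95, ITGA9 at 1.94 and ITGA8 at 1.57. Mesenchyme genes were higher in KO in 9 of 10. COL3A1, DCN and LUM had 0 UMIs in WT, and at the 3 UMIs per library that a count of 0 allows, KO was at least 497-fold, 256-fold and 32.9-fold higher, and the exact 95% intervals began at 404, 208 and 26.3. COL1A1 (1.14, 0.935 to 1.39), VIM (2.22) and COL1A2 (3.69) had the lowest ratios. COL3A1 and DCN are leading genes of cluster 13.

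At PEN, where 13% of all genes had an interval above 1 and 15.5% one below, duct genes had 4 above and 2 below among 10. DCDC2 (2.77, 2.42 to 3.18) and SLC4A4 (2.07) had the highest ratios. SOX9 (0.341, 0.211 to 0.535), PKHD1 (0.637, 0.377 to 1.05, an interval that spanned 1) and ANXA4 (0.829) had the lowest. Transport genes had 2 above and 2 below among 9, with CLCN2 (2.07) and KCNQ1 (1.90) highest. Junction genes had 5 above and 10 below among 28. CD9 (2.52, 0.981 to 7.24) and ESRP2 (1.81, 0.893 to 3.81) had the highest ratios, with intervals that spanned 1. ELF3, an epithelial transcription factor (0.331), RAB25 (0.448) and CLDN3 (0.454) had the lowest. Of the osteopontin receptors 7 could be measured, with ITGB5 at 1.65 and ITGB6 at 0.306. Of mesenchyme genes 4 could be, with 1 above and 2 below, and of other keratins 0.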

How the data were processed

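The 7 genes and the gene lists were chosen with earlier results of these data known. For bulk RNA-seq the authors used fastp for trimming, STAR for alignment (GRCh38) and featureCounts for read pairs per gene, without strand, and the deposited values are raw counts. For day 21 the authors deposited whole UMI counts per gene and barcode from a 10x kit, with empty droplets kept in the KO matrix alone. The PEN matrices as deposited hold expected counts, of which 10.2% (WT) and 10.5% (KO) of entries were not whole, and these were rounded. The authors called broad ATAC-seq peaks with MACS2 on merged libraries, and the deposited values are the fold over background and the -log10 q of each peak.

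Bulk counts were tested with edgeR 4.0.16 (TMM, filterByExpr, quasi-likelihood F test, Benjamini-Hochberg over all genes tested, threshold 0.05), at day 6 on 4 and at day 8 on all 8 libraries, and the procedure was tested on simulated data. All 7 genes passed filterByExpr at both days. Day 21 cells with 1500 to 5000 genes and under 15% mitochondrial UMIs were kept, and PEN cells with at least 200 genes and under 5%. Cells were clustered with scanpy 1.11.5 (Leiden, resolution 1) without the 7 genes, and no doublets were removed. Very large PEN barcodes, past 10 times the median UMIs, numbered 11 in WT (25.3% of its UMIs) and 22 in KO (20.4%). Intervals are exact Poisson, conditional or Clopper-Pearson at 95% and cover counting error only. Genes of the lists are named as the up to 4 largest changes called in bulk, and as the 3 highest and 3 lowest ratios in single cells, apart from a few genes that are not reported here; the unadjusted day 6 values of DCDC2 and KRT23 and the library number comparison were chosen after the values were seen. At day 8 the headings number 1 library of each condition 5 and 1 library 8. The differences between these libraries correlated at 0.329 to 0.677 over the 6 pairs of conditions. The main day 8 fits did not use the number, and it was taken as a pairing only in the alternative fits with a block. Both untreated KO headings read ko1, while those with selenium read ko1 for library 5 and ko2 for library 8. Whether this marks a clone or a replicate is not stated. The values of selenium against KO may thus also hold a difference between clones, which was not tested. The study names 3 KO clonal lines, and its legends give KO1 for untreated bulk RNA-seq and KO2 for ATAC-seq. For the H2O2 dose the study's methods give a micromolar unit where the labels give nM. Alternatives were DESeq2 1.42.0, limma-voom (limma 3.58.1), RLE factors, no count filter, pairs of groups fitted alone, the pairing as a block, each library left out, other cell filters, cells weighted equally, cells marked as doublets left out and other clustering resolutions.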

Additional observations from a re-analysis of the deposited data

Results flagged for a closer look

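KRT8, KRT19 and EPCAM stood in the opposite order between the genotypes at the 2 single-cell stages. At day 21 the KO to WT ratio was 1.19 for KRT8, 1.36 for KRT19 and 1.13 for EPCAM, and at PEN it was 0.787, 0.711 and 0.699. All 6 intervals excluded 1 and covered counting error only. The stages were made with different kits, with 1 library per genotype at each, and the difference between the stages was not tested.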

How the results depend on the processing

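Of the alternatives to a count or a main value, 72 gave the same verdict and 10 moved it. For day 6 KO against WT, members called numbered 0 and became 1 with DESeq2 (159 genes in all, against 56), 2 with no filter on low counts (580 genes) and 3 with the library letter as a replicate block (842 genes). Same-letter libraries differed alike with a correlation of 0.243 over 1 pair of groups, and the letter is only a shared name. Leaving out 1 library at day 6 gave 0 to 4 members, the most without WT library E (977 genes) and 2 without KO library E. With no filter at day 8, 1 member was called for selenium against KO (SPP1, 19 genes) and 2 for selenium against WT (SPP1 and KRT7, 151 genes). Why the unfiltered fits gave more calls was not tested. The number block at day 8 changed no member's call. For library 8 against 5, chosen after seeing the data, DESeq2 called 2 members (CFTR and SPP1), limma-voom called 1, and leaving out 1 library gave 1 to 2, with 1620 to 4310 genes in all. CFTR kept 1.44 to 1.86 there.

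Directions that turned were of small or uncertain values. For KO against WT at day 8, KRT8 was 0.00666 with limma-voom, SPP1 -0.00814 with no filter, and EPCAM -0.00237 with DESeq2 and -0.0243 with no filter. For KO against WT with H2O2, KRT7 was 0.0830 with limma-voom. Leaving out 1 library, where the lone library of an arm is assumed to vary like the other groups, turned the following. At day 6, KRT7 ran from -0.37 to 2.43, KRT19 from -0.10 to 0.31 and SPP1 from -1.05 to 1.07. For KO against WT at day 8, CFTR ran from -1.46 to 0.40, KRT7 from -1.86 to 0.0909, KRT8 from -0.20 to 0.21, KRT18 from -0.41 to 0.19, SPP1 from -0.56 to 0.99 and EPCAM from -0.17 to 0.20. For H2O2 against WT, CFTR ran from -2.16 to 0.24, KRT7 from -3.62 to 0.79, KRT18 from -0.43 to 0.16 and EPCAM from -0.27 to 0.10. For selenium against KO, CFTR ran from -0.73 to 1.33, KRT18 from -0.31 to 0.0292 and EPCAM from -0.0885 to 0.24. For selenium against WT, CFTR ran from -0.99 to 0.53, KRT18 from -0.54 to 0.0563 and EPCAM from -0.0894 to 0.28. For KO against WT with H2O2, CFTR ran from -0.97 to 1.90, KRT7 from -1.60 to 2.43 and KRT18 from -0.12 to 0.19. In single cells, weighting cells equally moved the PEN ratios of KRT18 to 0.575 and of KRT19 to 0.544.

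With 2 libraries per group, the day 8 intervals of CFTR and KRT7 hold changes of more than 2-fold, and the single-cell stages have no replicates.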
